A study of Homo sapiens with 14 samples.

Results

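The response to endoplasmic reticulum (ER) stress and amino acid shortage was followed through 35 genes, chosen by symbol from the ATF4 branch and from the folding and degradation machinery of the ER. All 35 were found on the arrays, on 44 of the 50599 probes, among 20992 genes that could be named. RNA of 2 human glioblastoma cell lines, A172 and U87 (U87-MG), was measured on single-dye (Cy3) Agilent arrays 40 h after transfection, as the labels give it, whereas the methods of the study give a longer time. In each line, cells received an siRNA against LINC00152, a long noncoding RNA, or a negative control siRNA, at 20 pmol per ml and with 10% fetal calf serum. There were 3 A172_control and 3 A172_siLINC00152 arrays, and 4 U87_control and 4 U87_siLINC00152 arrays, numbered as sets that each hold an array of both siRNAs. Both lines are long established cultures, and each result stands for these transfections in these lines.

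The study lists more than a single siRNA against LINC00152, and neither the labels nor its array methods say which was used on the arrays. The sequence below is that of the siRNA named for its knockdown measurements in both lines, and is shown because it is the treatment given there, against exon 1:
siLINC00152 #1: tgcctgtcttcagatcttcacagca

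Cells that accumulate unfolded protein in the ER signal through 3 sensors in its membrane. PERK (gene EIF2AK3) phosphorylates the translation factor eIF2α, which slows protein synthesis while favouring translation of ATF4, and the kinase GCN2 (gene EIF2AK4) does the same when amino acids run short. IRE1 (gene ERN1) splices the mRNA of XBP1, and ATF6 is released by proteolysis, so that chaperones, disulfide isomerases and degradation factors are made. Splicing, phosphorylation and proteolysis are not seen by probes that read the amount of an mRNA.

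All values are log2 of the background-subtracted brightness of a probe, minus the 75th percentile of the same array, so that 0 stands for the brightness at that percentile. Fold changes are differences of these values between groups, with a standard error (SE) from limma. A gene was called changed where the false discovery rate was under 0.2 and the fold change lay beyond 0.5 on the log2 scale in either direction, the limits used in the study. Arrays of bulk RNA cannot tell fewer expressing cells from less RNA per cell.

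The arrays of U87 set 3 stood apart from the rest. Their 75th percentiles were 33.0 (control) and 42.6 (siLINC00152) brightness units, where the other 6 U87 arrays lay at 56.7 to 69.0, and 35.7% and 40.4% of their spots were well above background, where the others had 44.4% to 48.3%. On the control array of this set, several probes not well above background shared nearly the same low value. SLC7A11, EDEM1, PSAT1 and SLC7A5 read -3.33, -3.33, -3.34 and -3.35 there. Such shared values do not measure an amount of RNA. U87 fold changes that moved by more than 1.5 times or turned sign without this set are also given without it.

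LINC00152 itself checked the labels. Its probe read 2.63, 2.44 and 2.48 in A172_control sets 1 to 3 and 0.23, -0.42 and -0.10 in A172_siLINC00152. In U87 it read 1.94, 1.83, 1.71 and 1.82 in the control sets and -1.21, -0.88, -0.74 and -0.79 after the siRNA. The groups did not overlap in either line, and the log2 fold change was -2.61 ± 0.24 (SE, n = 3 per group, limma adjusted p = 0.000731) in A172 and -2.73 ± 0.21 (SE, n = 4 per group, limma adjusted p = 4.96e-05) in U87. Further probes, read for LINC00152 or MIR4435-1HG, did not all move alike. In A172 and U87, A_21_P0012079 was at -2.44 and -2.97, A_21_P0012078 at -1.53 and -2.08, and A_21_P0012077 at -1.16 and -1.62. A_33_P3269678 was at -0.31 in both lines. Markers of glial and mesenchymal cells were checked for detection, meaning a signal well above background. VIM, NES and CD44 were detected on all 14 arrays, SOX2 on 6 of 6 A172 and 0 of 8 U87 arrays, and OLIG2 on 6 and 3. GFAP was detected on 1 A172 array and 0 U87 arrays, and S100B on 0 in both lines. The epithelial markers EPCAM and CDH1 were detected on 1 and 0 A172 arrays and on 0 U87 arrays, and KRT18 on 6 and 4. The blood and endothelial markers PTPRC and CDH5 were detected on all 14 arrays, CD3E on 6 in each line and PECAM1 on 6 A172 and 0 U87 arrays, so detection alone did not separate cell types here.

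PDIA4, a protein disulfide isomerase of the ER, was higher after the siRNA in all 4 U87 sets and was the single gene of the 35 called with this scaling and all arrays, in the fit with replicate block. With quantile normalization or the deposited values that fit called 2 genes in U87, of which the other was DNAJB9, a gene mostly undetected in the U87 control arrays. Genes that were not called are not thereby shown to have stayed the same. Of 35 genes, 31 were measured well enough to be tested in A172 and 30 in U87. None was called by limma in A172 or in U87 when the arrays were compared without regard to set, where 0.183% and 0.0502% of all tested probes were called. At an unadjusted p under 0.05 there were 0 genes in A172 and 1 (3.33%) in U87, where 2.28% and 2.31% of all probes were. Arrays of the same set deviated together from their group means, except that U87 set 1 was not told apart from set 2. Deviations of its control array correlated at 0.373 with its own siLINC00152 array and at 0.403 with that of set 2. With the set as a replicate block the errors became smaller. PDIA4 was then called in U87, as 1 of 30 genes, with 6 (20.0%) at an unadjusted p under 0.05, where 16.8% of all tested U87 probes were. The same fit called 4.19% of all tested U87 probes, so the share of 3.33% is near that of probes in general. In A172 the blocked fit called 0 of 31 genes, against 3.26% of all probes, with 1 gene, EDEM1, at an unadjusted p under 0.05 (3.23%, where 10.7% of all probes were).

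The median log2 fold change of the tested genes was 0.03 in A172, where that of all tested probes was 0.02. In U87 it was 0.19, where that of all tested probes was -0.02. In U87, 23 of 30 genes lay above 0 against 10386 of 21921 probes, and in A172 19 of 31 against 15401 of 28338. Some of these signs rest on differences near 0, since ATF3, ERN1, ATF6 and HSP90B1 in A172 and DDIT3 and ERN1 in U87 changed sign with another scaling. Over all alternatives, arrays left out included, 22 genes in A172 and 14 in U87 changed sign at least in 1, so these counts of signs are not firm. DNAJB9 and TRIB3 entered the U87 test through the siLINC00152 arrays alone, and without these 2 genes, 21 of 28 lay above 0 and the median was 0.16. Without U87 set 3 the U87 median was 0.09, and the blocked fit called 2 genes, PDIA4 and DNAJB9, the latter against control arrays of which most did not detect it.

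**Figure D1:**
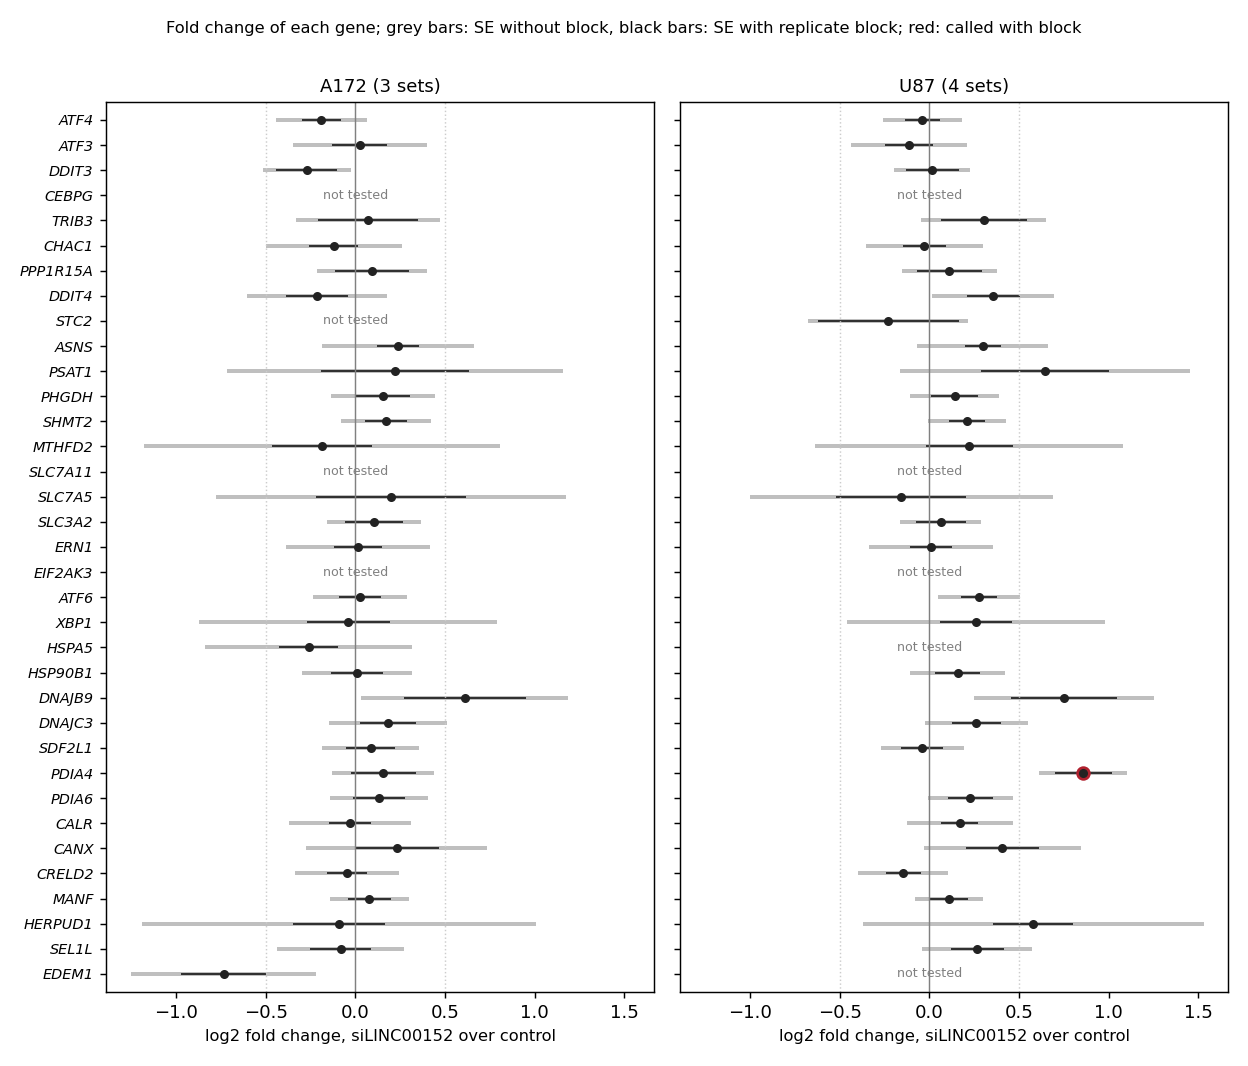
Log2 fold change of siLINC00152 over control (x axis) for each gene (y axis, ordered by role) in A172 and U87; points are fitted values, grey bars the SE without block and black bars the SE with the replicate block, dotted lines the 0.5 threshold. PDIA4 in U87, at 0.86, is the single gene called with the block and is marked in red.

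The ATF4 branch came first in this order. ATF4, the transcription factor at its centre, read 0.60, 0.64 and 0.70 in A172_control sets 1 to 3 and 0.43, 0.42 and 0.53 in A172_siLINC00152. In U87 it read 2.16, 1.97, 2.31 and 1.68 in the control sets and 2.04, 1.86, 2.42 and 1.64 after the siRNA. The A172 groups did not overlap, and the set differences, siLINC00152 minus control, were -0.18, -0.22 and -0.17, whereas the U87 groups overlapped. The A172 fold change was -0.19 ± 0.25 and the U87 fold change -0.04 ± 0.22, with blocked SE of 0.11 and 0.10 and blocked adjusted p of 0.685 and 0.848. It was below the 0.5 threshold in both lines, and at -0.09 in U87 without set 3.

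DDIT3, which encodes the pro-apoptotic factor CHOP, read -0.98, -1.13 and -1.23 in A172_control and -1.25, -1.86 and -1.05 in A172_siLINC00152. In U87 it read -0.29, -0.24, -0.43 and -0.38 in the control sets and -0.31, -0.11, -0.46 and -0.40 after the siRNA. The low A172 value came from set 2, set 3 went the other way, and the U87 arrays lay within a narrow band whichever siRNA they had received. The A172 fold change was -0.27 ± 0.25 and the U87 fold change 0.02 ± 0.21, a sign that turned with another scaling, and 0.03 without set 3.

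ATF3, a stress-induced repressor and activator of the same family, was at -0.12 in U87 and at 0.02 in A172 on its brightest probe, the latter below 0 with 4 other scalings. Without set 3 the U87 value was 0.01, so that its sign turned. Of its 3 further probes, A_33_P3214105 gave -0.05 in A172 and -0.17 in U87, and those tested only in U87 gave 0.01, or -0.32 without set 3, and -0.45. TRIB3, a pseudokinase that restrains ATF4, was at 0.07 in A172 and 0.30 in U87, and in U87 its set differences were 0.94, 0.85, -0.05 and -0.53, on both sides of 0. Of its U87 arrays, control sets 1 and 2 and siLINC00152 set 4 were not well above background, so only the difference of set 3 rests on detected spots, and the gene entered the U87 test through the siLINC00152 group alone. CHAC1, which degrades glutathione, was at -0.12 and -0.03, and in U87 at 0.07 without set 3. Its dimmer probe, tested in A172, differed by -0.60, -0.44 and -0.50 in the sets, with a fold change of -0.51 ± 0.19 (blocked SE) and a blocked adjusted p of 0.376. It is singled out after its values were seen.

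PPP1R15A, the phosphatase subunit that reverses eIF2α phosphorylation, was at 0.09 in A172 and 0.11 in U87, or 0.26 without U87 set 3. DDIT4, an inhibitor of the growth kinase mTORC1, was at -0.21 in A172 and 0.36 in U87, or 0.23 without U87 set 3. Its set differences were -0.32, -0.11 and -0.21 in A172 and, in U87, 0.13, -0.05, 0.75 and 0.61. STC2, a secreted glycoprotein, was tested in U87, where it was at -0.23, and was detected on 1 of 6 A172 arrays. CEBPG, a partner of ATF4, was detected on 4 A172 arrays and on no U87 array, and was tested in neither line.

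The enzymes that make amino acids and their single-carbon units were above 0 in U87 in 5 of 5 cases, of which MTHFD2 turned below 0 without U87 set 3, and in A172 in 4 of 5. None was called by limma, and at an unadjusted p under 0.05 with the block there were 0 in A172 and 1 in U87, where 10.7% and 16.8% of all probes were. ASNS, which makes asparagine, was higher after the siRNA in every set, by 0.21, 0.34 and 0.17 in A172 and by 0.44, 0.35, 0.12 and 0.27 in U87. Its A172 fold change was 0.24 ± 0.42 and its U87 fold change 0.30 ± 0.37, and with the block the U87 SE was 0.10 and the adjusted p 0.214, on a change below the 0.5 threshold. SHMT2, a mitochondrial serine hydroxymethyltransferase, was likewise higher in each set, at 0.17 and 0.21. PHGDH, the first enzyme of serine synthesis, was at 0.15 in A172 and 0.14 in U87.

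PSAT1, the aminotransferase that follows PHGDH, was at 0.22 ± 0.94 in A172 and 0.65 ± 0.81 in U87. On this probe the U87 set differences were 0.10, 0.21, 2.29 and -0.02, and the value was 0.10 without set 3. The 2.29 is set against a control array that did not detect the probe, at -3.34, so its size is not firm. A further PSAT1 probe gave 0.50 in A172, with set differences of 1.08, 0.45 and -0.02. In U87 it gave 0.38 and was higher in all 4 sets, by 0.30, 0.43, 0.52 and 0.27, with a blocked adjusted p of 0.312. MTHFD2, a mitochondrial folate enzyme, was at -0.18 in A172 and 0.22 in U87, and in U87 at -0.12 without set 3.

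Of the amino acid transporters, SLC3A2, the heavy chain shared by several of them, was at 0.10 in A172 and 0.06 in U87, or 0.00 without U87 set 3. Its partner SLC7A5 was at 0.20 ± 0.98 and -0.16 ± 0.85, or -0.06 without U87 set 3, with A172 sets at 1.57, -0.80 and -0.18. SLC7A11, the cystine transporter, was not tested. It was detected on the 4 arrays of A172 sets 1 and 3 and on no U87 array, and it read 0.27 and -0.54 in A172 set 1 against -3.61 and -2.44 in set 3 and -4.57 and -3.64 in set 2.

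The sensors came next. ERN1 was at 0.01 in both lines, and the sign turned with another scaling in each. ATF6 was at 0.03 in A172, below 0 with another scaling, and 0.28 in U87, where all 4 sets were higher after the siRNA, by 0.38, 0.10, 0.39 and 0.23, with a blocked adjusted p of 0.236. EIF2AK3 was detected on none of the 14 arrays and was not tested.

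XBP1, the factor activated by IRE1, read 1.14, 1.37 and 0.51 in A172_control and 0.86, 1.39 and 0.64 in A172_siLINC00152. In U87 it read 1.93, 2.28, -1.35 and 2.12 in the control sets and 1.98, 2.25, -0.27 and 2.05 after the siRNA. Both arrays of U87 set 3 were far below the other 6, and the groups overlapped in both lines. The A172 fold change was -0.04 ± 0.83 and the U87 fold change 0.26 ± 0.72. Without U87 set 3 it was -0.02 ± 0.27 in U87, and the SE in A172, which shares the spread of the model, also became 0.27.

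HSPA5 encodes BiP, the chaperone that holds the sensors inactive. It read -1.50, -0.90 and -1.47 in A172_control and -1.78, -1.40 and -1.49 in A172_siLINC00152. In U87 it read -4.20, -2.64, -3.31 and -1.92 in the control sets and -4.27, -2.23, -2.83 and -2.0 after the siRNA, and only the arrays of set 4 were well above background. The A172 groups overlapped, though each set was lower after the siRNA, and the fold change was -0.26 ± 0.58 with a blocked adjusted p of 0.732. It was not tested in U87.

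PDIA4 read 2.75, 3.33 and 2.81 in A172_control and 3.24, 3.18 and 2.95 in A172_siLINC00152. In U87 it read 2.93, 2.92, 1.99 and 2.78 in the control sets and 3.56, 3.54, 3.32 and 3.64 after the siRNA. The U87 groups did not overlap, and every U87 set was higher after the siRNA, by 0.63, 0.61, 1.33 and 0.85, whereas the A172 groups overlapped. The U87 fold change was 0.86 ± 0.25 (SE, n = 4 per group) with an adjusted p of 1.00 without block, and 0.86 ± 0.16 with an adjusted p of 0.0707 with the replicate block. The low control array of set 3 carried part of this, and without that set the fold change was 0.70 and the blocked adjusted p 0.110. Without set 4 the blocked adjusted p was 0.209, which ended the call, and over all alternatives it ranged from 0.00413 to 0.209. In A172 the fold change was 0.16 ± 0.28.

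**Figure D2:**
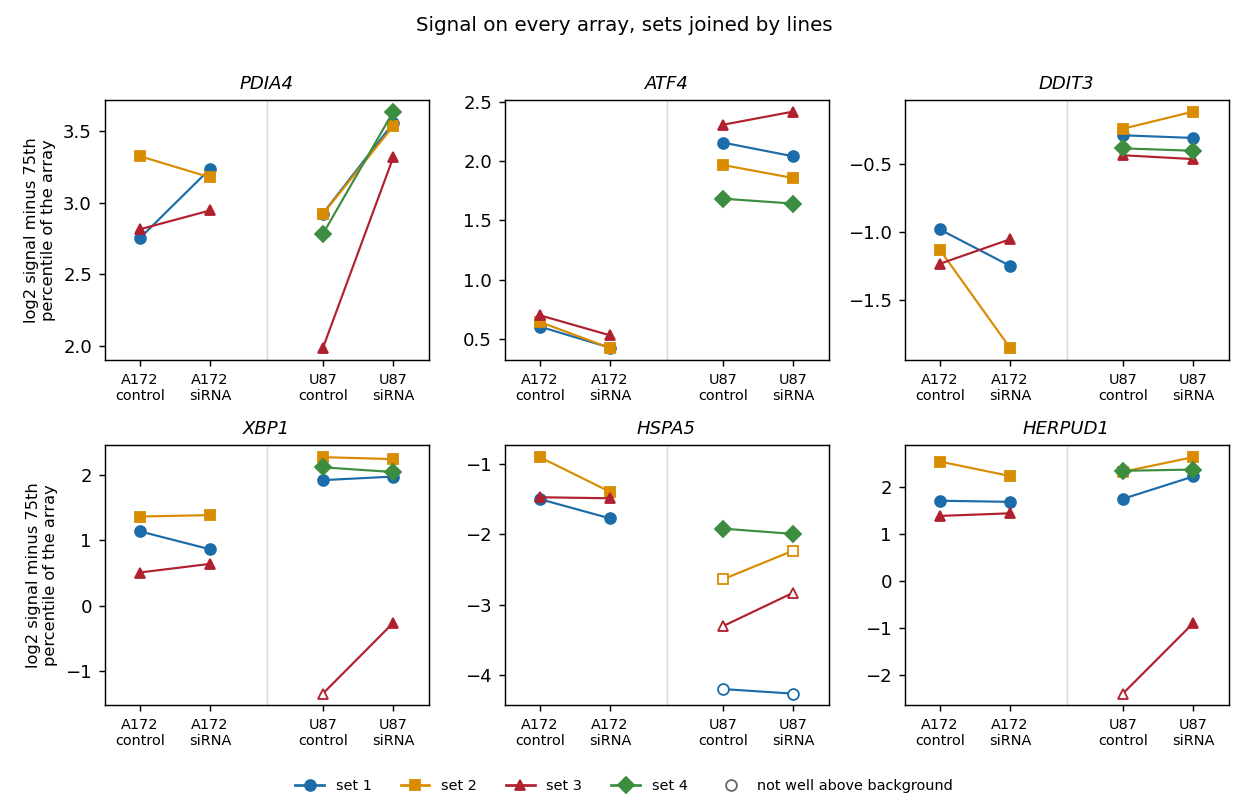
Log2 signal minus the 75th percentile of the array (y axis) for 6 genes on every array, by line and siRNA (x axis); lines join the control and siLINC00152 arrays of a set, and open symbols mark arrays where the probe was not well above background. PDIA4 was higher in all 4 U87 sets, and XBP1 and HERPUD1 were low in both arrays of U87 set 3.

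DNAJB9, a BiP cochaperone, read -2.59, -3.28, -3.31 and -1.74 in the U87 control sets and -1.28, -1.72, -3.70 and -1.21 after the siRNA. The groups overlapped. It was at 0.61 ± 0.58 in A172 and at 0.75 ± 0.50 in U87 and was called in neither. All 3 A172 sets were higher after the siRNA, by 0.35, 0.57 and 0.91, and the U87 sets read 1.31, 1.56, -0.40 and 0.54. Neither array of U87 set 3 detected the gene, so the -0.40 does not measure a fall. SLC7A11 and CEBPG, undetected on every U87 array, differed by -0.45 and -0.50 in that set. In U87 DNAJB9 was well above background on 1 of 4 control and 3 of 4 siLINC00152 arrays, so it entered the test through the siLINC00152 group alone. Its U87 fold changes and calls are set against a control near background, so their sizes are not firm. Admission through the siLINC00152 group alone also favours a value above 0. With the block it was called in U87 with quantile normalization (1.02, adjusted p = 0.158), with the deposited values (adjusted p = 0.164) and without set 3, at 1.13 with an adjusted p of 0.100, and with all sets and the scaling used here it was not, at an adjusted p of 0.260. Over all alternatives its blocked U87 fold change ranged from 0.31 to 1.13, with adjusted p from 0.0397 to 0.473.

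HSP90B1, the ER member of the HSP90 family, was at 0.16 in U87 and 0.01 in A172, below 0 there with 3 other scalings, and without set 3 the U87 value was 0.04. Its other probe gave 0.06 in A172 and 0.37 in U87, where it was higher in all 4 sets, with a blocked adjusted p of 0.269 and a U87 value of 0.22 without set 3. DNAJC3, another cochaperone, was at 0.18 and 0.26, or 0.13 without U87 set 3. The isomerase PDIA6 was at 0.13 and 0.23 and was higher after the siRNA in every set of both lines, with a U87 value of 0.10 without set 3. Of the lectin chaperones, CALR was at -0.03 and 0.17, and CANX at 0.23 and 0.41, or -0.11 and 0.36 on its other probe. Without set 3 the U87 value of CANX was 0.13 on its brightest probe and 0.33 on the other. That other probe was higher in all 4 U87 sets, with a blocked adjusted p of 0.195 on a change below the 0.5 threshold. It was well above background on 2 of 4 control and 3 of 4 siLINC00152 arrays.

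SDF2L1, part of a chaperone complex of the ER, was at 0.08 in A172 and -0.04 in U87, or -0.08 without U87 set 3. MANF, a secreted ER factor, was at 0.08 and 0.11, or 0.05 without U87 set 3. CRELD2 was at -0.05 in A172 and -0.15 in U87, where the set differences were -0.17, -0.11, -0.15 and -0.16, with a blocked adjusted p of 0.463. Among the 30 genes tested in U87, 10 were higher in all 4 sets and 1 was lower, where 16.6% and 13.9% of all tested probes were. In A172, 10 of 31 went the same way in all 3 sets, against 36.4% of all probes.

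Degradation of ER proteins was represented by 3 genes. EDEM1, which directs misfolded glycoproteins to disposal, read -1.11, -1.67 and -1.25 in A172_control and -2.11, -2.29 and -1.84 in A172_siLINC00152. It differed by -1.0, -0.62 and -0.59 in the A172 sets, and the A172 groups did not overlap. Its fold change was -0.74 ± 0.52, with a blocked SE of 0.24 and a blocked adjusted p of 0.275, so it was not called. Without U87 set 1, which takes part only in the shared spread, it was called with the block at an adjusted p of 0.138, and over the alternatives this p ranged from 0.138 to 0.785 and the fold change from -0.81 to -0.23. In U87 it was detected on 4 of 8 arrays and not tested. HERPUD1, a scaffold of the degradation complex, was at -0.09 ± 1.1 in A172 and 0.58 ± 0.95 in U87, and at 0.27 ± 0.32 in U87 without set 3. SEL1L, an adaptor of the same complex, was at -0.08 and 0.27, read from its only detected probe, and the U87 value was 0.09 without set 3.

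The effects of the siRNA on A172 and U87 were then compared with each other, in the 29 genes tested in both lines. With this scaling, none differed by the limma interaction test, without or with the block, where 0.00945% and 0.421% of all probes did. At an unadjusted p under 0.05 there were 0 genes without and 2 (6.90%) with the block, where 0.789% and 8.31% of all probes were. The 3 largest differences, A172 minus U87, were those of PDIA4 at -0.70, HERPUD1 at -0.67 and DDIT4 at -0.57, with blocked adjusted p of 0.501, 0.648 and 0.570. This order rests on U87 set 3, since without it these differences were -0.54, -0.36 and -0.44, and that of DNAJB9 went from -0.14 to -0.53. PDIA4 was thus called in U87 and not in A172, and with this scaling the difference between the lines was not itself called. With the block, normexp background correction and quantile normalization together, the difference was called, at -0.54 (adjusted p = 0.157). Normexp was not run without quantile normalization. Over all alternatives with the block the difference ran from -0.87 to -0.54, with adjusted p from 0.157 to 0.807.

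**Figure D3:**
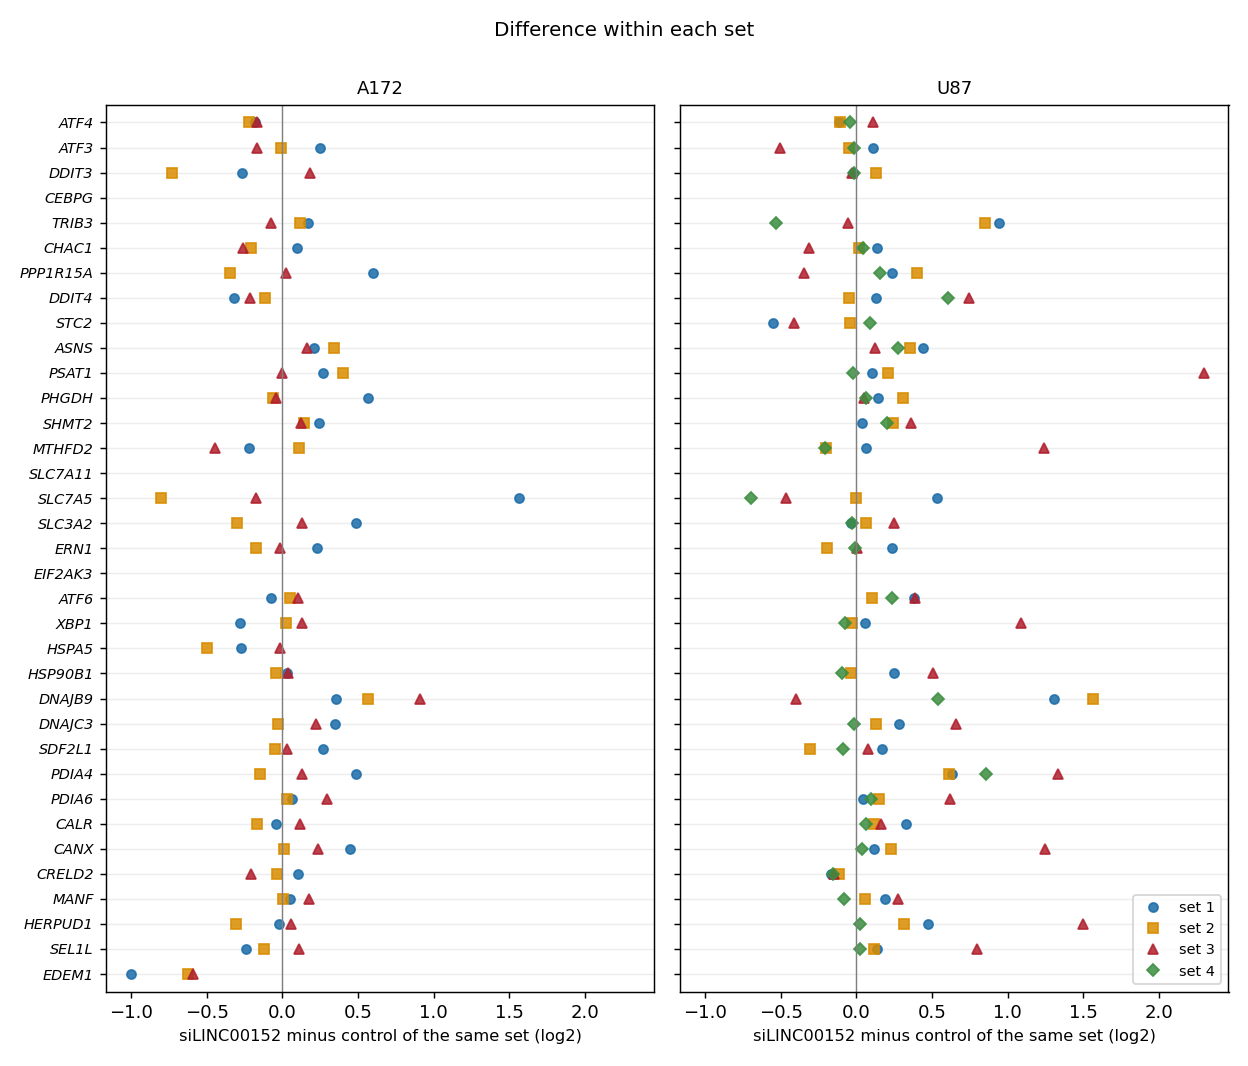
Difference between the siLINC00152 and the control array of the same set (x axis, log2) for each gene (y axis) in A172 with 3 sets and U87 with 4 sets; each symbol is a set. In U87 the points of set 3 reach 2.29 for PSAT1 and 1.5 for HERPUD1, away from the other sets. Both are set against undetected control spots.

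Set against the other U87 sets, averaged over its 2 arrays, U87 set 3 was lower by more than 1 for 8 of 30 genes and higher for 2. That is 26.7% and 6.67% of these genes, where 13.8% and 12% of all tested U87 probes were. The dimness of both arrays moves with these differences, and its part in them was not tested.

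The 8 low genes were HERPUD1 (lower than the other sets by a log2 difference of -3.92), MTHFD2 (-3.47), PSAT1 (-3.08), SLC7A5 (-2.97), XBP1 (-2.91), CANX (-1.58), DNAJB9 (-1.54) and ASNS (-1.26), chosen after their values were seen. The further PSAT1 probe was lower by less, at -0.76. Only CANX was well above background on both arrays of the set, whereas MTHFD2, SLC7A5 and DNAJB9 were on neither and the other 4 on the siLINC00152 array alone. Apart from CANX, the sizes and the order of these differences therefore rest on undetected spots, on arrays where the dimmest spots well above background read -1.12 and -1.60. TRIB3 (1.04) and CALR (1.02) were higher, as were, by less, ERN1 (0.89) and CHAC1 (0.82). The size for TRIB3 is not firm, since control sets 1 and 2 and siLINC00152 set 4 did not detect it. ATF4 itself was higher in set 3, by 0.47. HERPUD1 and ASNS, undetected on the control array, were low beside it. TRIB3, CHAC1, ATF3 (0.70 on its brightest probe) and PPP1R15A (0.55) were higher, as ATF4 was. Of the same branch, DDIT3 (-0.16), DDIT4 (-0.46) and STC2 (-0.76, undetected on both arrays) were lower. How these values relate to the ATF4 mRNA was not tested.

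HERPUD1 in U87 read 1.75, 2.32, -2.39 and 2.35 in the control sets and 2.22, 2.64, -0.89 and 2.37 after the siRNA. MTHFD2 read 0.49, 0.76, -3.39 and 1.02 in the control sets and 0.56, 0.56, -2.15 and 0.82 after the siRNA. The control array of set 3 was the lower of its pair in both, and neither gene was well above background on it, nor was MTHFD2 on the siLINC00152 array of that set. These were also chosen after their values were seen. Of the 35 genes, 22 were detected on that control array and 26 on its partner, where the other U87 arrays detected 28 to 32.

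**Figure D4:**
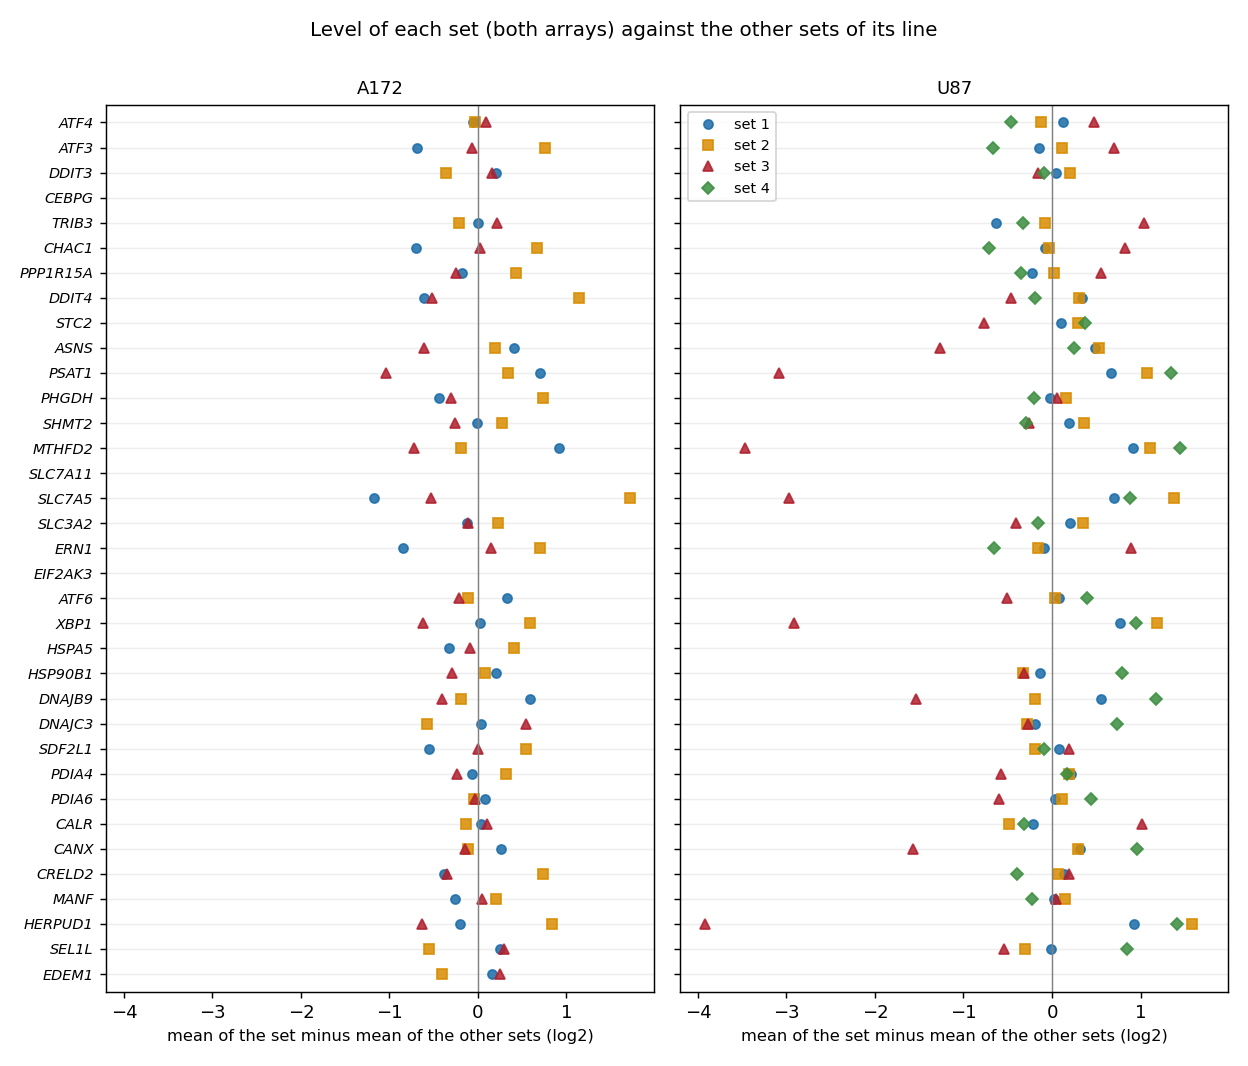
Mean of the control and siLINC00152 arrays of a set minus the mean of the other sets of the same line (x axis, log2) for each tested gene (y axis); symbols are sets. In U87, set 3 lies below -2.9 for HERPUD1, MTHFD2, PSAT1, SLC7A5 and XBP1, and the A172 sets span -1.18 to 1.71, both from SLC7A5. Undetected spots are included.

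In A172, set 2 was higher than the other sets by more than 1 for SLC7A5 (1.71) and DDIT4 (1.14), set 1 was lower for SLC7A5 (-1.18) and set 3 for PSAT1 (-1.04). In A172 each set lies on a slide of its own, so set and slide cannot be told apart, and all 8 U87 arrays share a slide, so line and slide cannot be told apart. Within sets, the median difference over the tested genes was 0.10, -0.05 and 0.04 in A172 sets 1 to 3, where that of all probes was 0.04, 0.00 and 0.00. In U87 sets 1 to 4 it was 0.14, 0.11, 0.21 and 0.01, where that of all probes was 0.00, 0.01, -0.07 and 0.01. In U87 set 3, 11 of 30 genes were higher after the siRNA by more than 0.5, against 4, 3 and 3 in sets 1, 2 and 4. That is 36.7% in set 3, where 18.8% of all tested probes were, and 7 of the 11 were well above background on both arrays of the set. In sets 1, 2 and 4 it is 13.3%, 10% and 10%, where 5.74%, 5.80% and 5.90% of all tested probes were. There, 2, 1 and 3 of the genes were well above background on both arrays.

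Because some of these genes were low together in U87 set 3, their promoters were searched for known response elements on both strands in RefSeq's GRCh38.p14 table, over the 250 bases before each start. The table held 33 of the 35 genes, with 48 starts. The ER stress response element (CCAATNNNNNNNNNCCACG) was found before 26 of 35116 starts, or 0.074%, and 7 of those genes are members, namely XBP1, HSPA5, HSP90B1, PDIA6, CALR, CANX and CRELD2. Its shorter form (ATTGGNCCACG) was found before 18 starts, or 0.0513%, including HERPUD1 and SDF2L1, and the core of the ATF4 element (TGATGNAA) before 1104, or 3.14%, including ASNS, ATF3, CEBPG, CHAC1 and HERPUD1. The element TGACGTGG was found before 215 starts, or 0.612%, and before none of the members. These are matches of letters, not shown to be bound, and their relation to the values of set 3 was not tested. The members were chosen as genes of these responses, so finding the elements before them is not a test. In set 3 the carriers CALR (1.02), CHAC1 (0.82), SDF2L1 (0.20) and CRELD2 (0.19) were higher than in the other sets. ATF3 was higher on its brightest probe (0.70) and on A_33_P3214105 (0.14), and lower on A_23_P34915 (-2.11) and A_24_P33895 (-0.21). The probe A_23_P34915 was undetected on both arrays of the set. The carriers PDIA6 (-0.60) and HSP90B1 (-0.32) were lower, as were XBP1, HERPUD1, CANX and ASNS, named above. No match was found for MTHFD2, PSAT1, SLC7A5 and DNAJB9, which were low. The stretches before XBP1 (chr22:28800573-28800651, minus strand), HERPUD1 (chr16:56931995-56932065, plus strand) and ASNS (chr7:97872439-97872506, minus strand) are printed in the direction of the gene, with the matched element in capitals:
XBP1: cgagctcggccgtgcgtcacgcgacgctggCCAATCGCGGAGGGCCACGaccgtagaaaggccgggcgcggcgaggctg
HERPUD1: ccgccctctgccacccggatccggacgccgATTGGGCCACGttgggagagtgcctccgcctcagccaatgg
ASNS: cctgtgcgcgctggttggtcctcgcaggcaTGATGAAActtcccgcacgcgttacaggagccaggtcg

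Further genes of the pathway were read from lists of 45 genes for the integrated stress response and amino acid supply and 48 genes for folding, translocation and degradation in the ER. Without block, limma called 0 of 37 and 0 of 45 tested genes in A172 and 0 of 33 and 0 of 43 in U87, with 0 at an unadjusted p under 0.05 in each. With the block, 2 of 37 and 1 of 45 fell in A172 and 0 were called in U87, where 3.26% and 4.19% of all probes were called in the lines, so 5.41% and 2.22% in A172 lie near the general share. An unadjusted p under 0.05 was reached by 7 of 37 and 4 of 45 genes in A172 and by 3 of 33 and 8 of 43 in U87, where 10.7% and 16.8% of all probes did. EIF2AK4, the amino acid sensor GCN2, fell by 0.70 in A172, with set differences of -0.99, -0.45 and -0.65 (blocked adjusted p = 0.110), and was at -0.24 in U87. BCAT1, an aminotransferase of branched-chain amino acids, fell by 0.52 (set differences -0.53, -0.60 and -0.43, blocked adjusted p = 0.130) and was at -0.16 in U87. WFS1, an ER membrane protein, fell by 0.63 (set differences -0.45, -0.63 and -0.82, blocked adjusted p = 0.0710), whereas in U87 it was at 0.26. A dimmer probe of PDIA3, a disulfide isomerase, was also called in A172 with the block, at -0.74 (set differences -0.95, -0.66 and -0.62, blocked adjusted p = 0.0714), whereas the brightest probe, which stands for the gene in the counts, gave 0.07. These calls need the block, as their adjusted p without it was 1.00. WFS1 also differed between the lines with the block, by -0.89 (A172 minus U87, limma interaction, adjusted p = 0.179).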

How the data were processed

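RNA of 14 cultures was hybridised to Agilent arrays. Spot intensity was deposited as scanner output of Feature Extraction 11.5.1.1, for a design annotated on hg19. The authors also deposited log2 values normalized between arrays, with the same column median, 4.38, on every array. The labels give 40 h, the paper 48 h.

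Here the 75th percentile of each array's non-control spots was subtracted from log2 of the processed signal. Spots with outlier flags were dropped, and spots of a probe averaged. A probe entered the test of a line if, in a group, 3 or more arrays had 0.5 or more of its spots well above background. limma 3.58.1 (R 4.3.3, lmFit and eBayes) was fitted with 4 group means, with Benjamini-Hochberg adjustment within each line over 28338 (A172) and 21921 (U87) probes. Calls needed a false discovery rate under 0.2 and a change beyond 0.5. The code was tested on simulated data.

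RefSeq's GRCh38.p14 table named 29033 of 50599 probes. Each gene is represented by its brightest tested probe. All members are named, with values on every array for those called with all arrays and this scaling, with or without block, and for ATF4, DDIT3, XBP1 and HSPA5; further pathway genes are named where that probe is called, and other probes where they have the opposite sign and either is called. DNAJB9 and EDEM1, called only under an alternative, have values on every array of the line concerned, chosen after they were seen. Members and lists were chosen with earlier results of these data known. Set numbers were taken as pairs in the replicate block. Deviations from the group mean correlated at 0.675 to 0.794 across probes within A172 sets and 0.373 to 0.864 within U87 sets, and between different sets at -0.70 to -0.04 and -0.77 to 0.41. Probes are not independent replicates. Alternatives concerned the block, normalization, background (normexp, offset 50, on median signals), deposited values, filters, thresholds and arrays left out. The normexp alternative was also quantile normalized, so it changed background and normalization together. The number of arrays limits the precision. The detection of 1 marker is not reported here.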

Additional observations from a re-analysis of the deposited data

Results flagged for a closer look

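Arrays standing apart from the others of their U87 group of 4 were sought with Dixon's gap test. The groups checked were 35 for each siRNA, from members and from further genes named here. Of 70 groups checked, 13 passed its 0.05 level, where chance gives about 3.5 (1 in 20) if groups are independent. These share the same U87 arrays and are not independent. The test was passed by 10.6% of the control and 8.09% of the siLINC00152 groups of all probes tested in U87. Among the groups checked here, 22.9% and 14.3% passed it. Of these 13, 11 lay in U87 set 3, with 8 in its control array and 3 in its siLINC00152 array. Over all probes tested in U87 the test was passed in set 3 by 8.69% of the control and 4.93% of the siLINC00152 groups, where 22.9% and 8.57% of the groups checked here were, so both arrays departed in general. In the control array of set 3, HERPUD1 (-2.39), MTHFD2 (-3.39), PSAT1 (-3.34), XBP1 (-1.35), ASNS (-1.18), STC2 (-1.63) and PDIA4 (1.99) were lower than the other control arrays, and CALR (2.22) was higher. Of these, PDIA4 and CALR alone were well above background on that array. In the siLINC00152 array of set 3, HERPUD1 (-0.89), MTHFD2 (-2.15) and XBP1 (-0.27) were lower than the others, MTHFD2 on a spot not well above background. In the siLINC00152 array of set 4, CRELD2 (3.22) and MANF (0.59) were lower than the others. The effect on WFS1 differed between the lines in the limma interaction test with the block, by -0.89 (A172 minus U87, adjusted p = 0.179), and not without it, at an adjusted p of 1.00.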

How the results depend on the processing

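Of the changes made to the fit without block, the replicate block moved the counts most. It took called probes from 52 to 924 in A172, from 11 to 918 in U87 and from 2 to 89 in the interaction. Called members in U87 went from 0 to 1. Without block, A172 gave 34 probes with no filter on dim probes, 33 with detection on every array, 14 with each line fitted alone and 27 at an FDR of 0.05. U87 gave 41 with normexp and quantile normalization together, 7 with detection on every array and 7 at an FDR of 0.05. The interaction gave 1 with quantile normalization alone and 0 with normexp added to it. It gave 1 with deposited values, 0 with detection on every array and 1 at an FDR of 0.05. Leaving out an array or a set gave 4 to 127 in A172 (127 without U87 set 3), 5 to 17 in U87 and 0 to 2 in the interaction. Detection on every array and left-out arrays also reduce the probes or arrays tested.

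With the block, normexp and quantile normalization together gave 389 probes in A172, 187 in U87 and 322 in the interaction. Quantile normalization and deposited values each gave 53 in the interaction, and an FDR of 0.05 gave 270, 112 and 8. Leaving out a set gave 226 to 1411, 275 to 755 and 2 to 101. Called members in U87 were 2 with quantile normalization, 2 with deposited values, 0 at an FDR of 0.05 and 0 to 2 with a set left out. In A172 they were 0 to 1 with a set left out. In the interaction normexp and quantile normalization together gave 1, which was PDIA4. The PDIA4 fold change in U87 stayed above 0, at 0.86 but not called at an FDR of 0.05 and 0.70 to 0.94 with a set left out, not called without U87 set 4. The cause was not tested.

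Of the member fold changes without block, none of which was called, 992 values in A172 and 950 of 951 in U87 stayed uncalled. Among them 67 and 38 changed sign, none of them called. These counts follow the calls alone, not the size of the fold change. With the block, 340 of 341 values in A172 and 325 of 330 in U87 stayed called or not called. Low signal over background in U87 set 3 limits its values.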
